A study of Homo sapiens with 3 samples.

Results

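The genes described here are BAHD1, a reader of repressive chromatin, and its reported corepressor partners, followed through a pooled CRISPR/Cas9 knockout screen for cell-surface HLA-B. Of 8 genes chosen by name (BAHD1, BAHCC1, MIER1, MIER2, MIER3, HDAC1, HDAC2 and CDYL), 7 had single guide RNAs (sgRNAs) under their own symbol, with 69 sgRNAs among the 189398 that targeted 20381 genes. No sgRNA carried the name BAHCC1, so that gene has no value here. Whether sgRNAs listed under another name target it was not tested. BAHD1 was selected for its measured enrichment in the HLA-B sort relative to the high-screen control. The other genes were taken as its reported partners, with earlier results of these data known. The BAHD1 values in that comparison are therefore a description and not a test of it.

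The screen was carried out in K562 Cas9 cells, a human leukaemia line whose surface carries few MHC class I (MHC-I) molecules, infected with the Bassik genome-wide knockout library (multiplicity 0.3) and kept in puromycin (1 μg/mL) for a period of 72 hr that began 48 hr after infection. Each group was 1 library of sgRNA cassettes amplified from genomic DNA. The HLA-B high sorted library came from cells given 1 ng/mL interferon-gamma (IFN-γ) for 24 h and sorted for high HLA-B at days 18 and 25. The high-screen control and the low-screen control were the libraries labelled as controls of that screen and of a converse screen, in which cells received 25 ng/mL IFN-γ and were sorted for low MHC-I at days 7 and 15. The labels did not give the day on which either control pool was collected. All 3 libraries came from cells carrying Cas9 and sgRNAs. The sort, the gates and any difference in time in culture cannot be told apart in comparisons of these libraries. In comparisons with the low-screen control, the separate screen and its IFN-γ dose (25 against 1 ng/mL) cannot be told apart from these either.

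Trimethylation of histone H3 lysine 27 (H3K27me3) is deposited by polycomb repressive complex 2 (PRC2) and marks silenced genes, including the MHC-I genes of some cancer cells. BAHD1 binds this mark through its bromo-adjacent homology (BAH) domain and is known as a scaffold for heterochromatin proteins. MIER proteins are ELM2-SANT scaffolds that hold the histone deacetylases HDAC1 or HDAC2, and CDYL is a chromodomain protein that also recognises H3K27me3.

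The library sgRNAs are identified in the count files by gene and number alone, so their sequences and cut sites are not known here. The study also listed 2 individual BAHD1 guides used to disrupt the gene outside the screen, and these are shown because they place the knockout within the gene. Each is written 5′ to 3′ as its genomic target, with the protospacer-adjacent motif (PAM) in capitals.
First BAHD1 guide: ctgagttcgggcctcacTGG
Second BAHD1 guide: tgaggtgacctgggctctcGGG

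BAHD1 lies on the + strand of chromosome 15 (GRCh37, chr15:40731920-40760435). The first guide matched chr15:40750697-40750716 on the + strand and the second chr15:40750787-40750808 on the - strand. Each had 1 exact match beside an NGG motif in the genome. Both targets lie in coding sequence of exon 2 of the 7 exons of the BAHD1 transcript used. The predicted cuts fall at codon 16 and codon 43 of 780, or 2.01% and 5.51% of the way through the coding sequence, and are 82 bases apart. The 112 bases from one target to the other, on the + strand and with both targets and their PAMs in capitals, read as follows.
BAHD1 exon 2 stretch: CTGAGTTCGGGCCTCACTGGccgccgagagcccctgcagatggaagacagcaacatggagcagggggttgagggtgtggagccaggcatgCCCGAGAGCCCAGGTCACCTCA

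Whether either guide is among the 10 library sgRNAs of BAHD1 was not tested, since the count files hold no sequences. Values below are therefore given by library sgRNA number.

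The libraries differed in depth and in how many sgRNAs they held. The sorted library held 34266318 reads matched to an sgRNA, the high-screen control 22562241 and the low-screen control 98426251. Of 200682 sgRNAs listed in any library, 49.6% were listed in the sorted library, against 97.7% and 93.4% in the controls. The median sgRNA had 0 reads in the sorted library and 87 and 391 in the controls, although the sorted library held more matched reads than the high-screen control. Safe-targeting sgRNAs, which cut sites with no annotated function, had a median log2 ratio of -4.49 for sorted over high-screen control, with an interquartile range of -6.50 to -0.55. Non-targeting sgRNAs, which match no genomic site, had a median of -2.20, with an interquartile range of -6.54 to 0.16, so the place of a gene depends on the control class it is set against. With 1 library per group there is no replicate error, and the intervals given on folds concern the counting of reads only. They treat each read as independent. PCR reads without molecular identifiers are not independent molecules, so these intervals are too narrow even for counting error.

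BAHD1 was the member with the most reads in the sorted library. Its 10 sgRNAs together held 596 CPM (reads scaled to 1000000 matched reads per library) after the sort, against 42.7 CPM in the high-screen and 42.3 CPM in the low-screen pool. The summed level was 13.9-fold that of the high-screen control (95% counting interval 13.1 to 14.9) and 14.1-fold that of the low-screen control (13.6 to 14.6). The controls held nearly equal amounts of BAHD1 sgRNAs, and the sorted library stood above both.

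**Figure D1:**
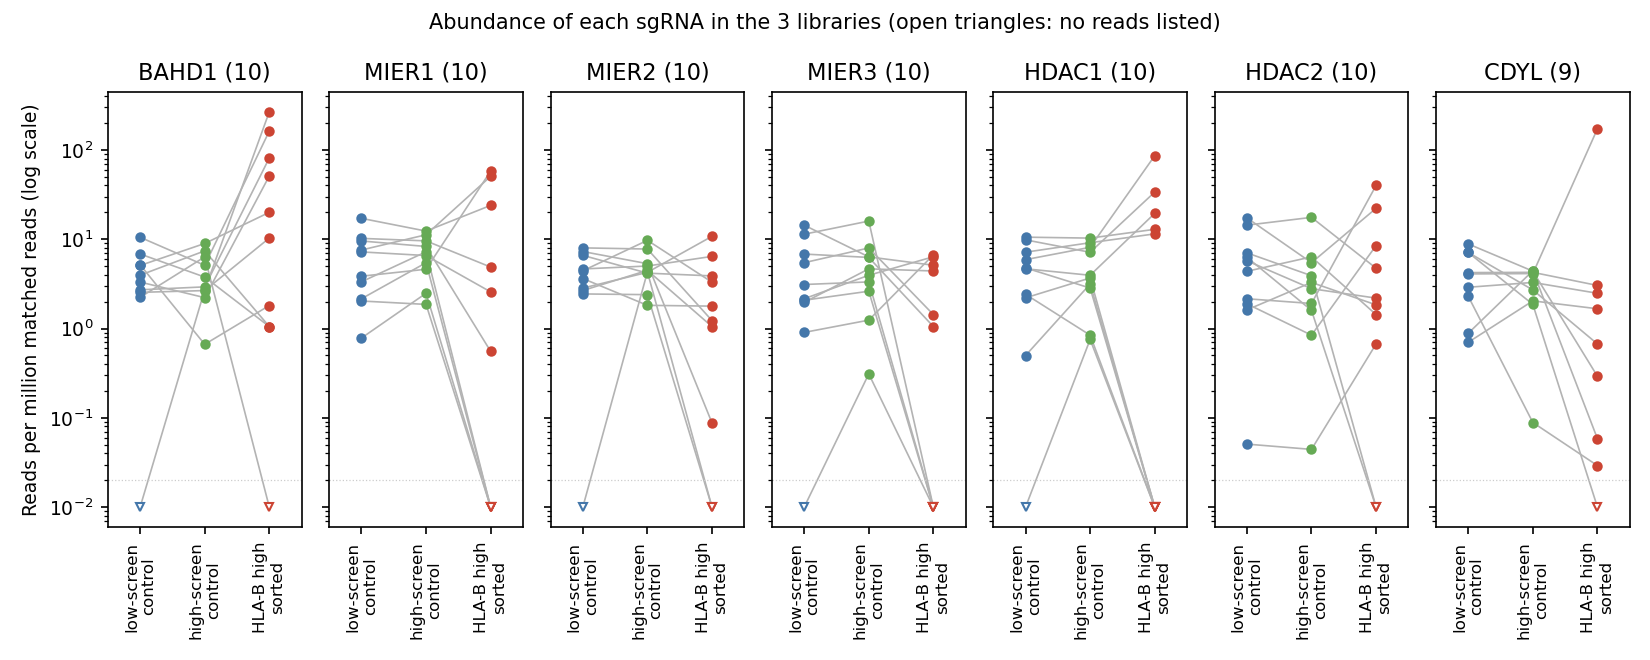
CPM (log scale) of every member sgRNA in the low-screen control, high-screen control and HLA-B high sorted libraries, with 1 panel per gene, the number of sgRNAs in brackets, and grey lines joining the same sgRNA. Open triangles mark sgRNAs with no reads, drawn below the dotted line at an arbitrary level; BAHD1 had 1 such sgRNA in the sorted library and HDAC1 had 5.

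The gain of BAHD1 was spread over several sgRNAs of unequal size. sgRNA 3 had 9151 reads after the sort, against 61 in the high-screen control, and none were listed in the low-screen control. sgRNA 10 had 5566, 115 and 1034 reads in the same order, and sgRNA 8 had 2783, 66 and 267. These 3 sgRNAs and sgRNA 5, with 1751, 50 and 326 reads, carried most of the BAHD1 reads after the sort, and sgRNA 3 alone held 44.8% of them. Without sgRNA 3 the summed fold over the high-screen control was 8.22.

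The log2 ratio of scaled reads, sorted over high-screen control, was 6.61 for sgRNA 3, 4.98 for sgRNA 10, 4.78 for sgRNA 8 and 4.51 for sgRNA 5. All 4 lay at or above percentile 99.6 of the safe-targeting sgRNAs. More modest ratios were seen for sgRNA 2 (1.94; 353 sorted and 60 high-control reads), sgRNA 7 (1.40; 62 and 15 reads) and sgRNA 1 (1.16; 685 and 202 reads). The other sgRNAs went the opposite way: sgRNA 9 at -1.81, sgRNA 6 at -2.78, and sgRNA 4, which had 143 reads in the high-screen control and none after the sort, at least 72.4-fold lower by a floor of 3 reads. sgRNA 9 lay above the medians of both control classes, and sgRNA 6 lay above the safe-targeting but below the non-targeting median.

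Of the 10 BAHD1 sgRNAs, 7 had a log2 ratio above 1, a level reached by 12.6% of all scored gene-targeting sgRNAs, and 3 fell below -1, against 70.8% of all. The BAHD1 median log2 ratio was 1.67, at percentile 99.7 of 20314 genes, and 0.556% of genes had a median above 1. Redundant siRNA activity (RSA), which ranks a gene by how far up the list its sgRNAs crowd, placed BAHD1 at rank 6. The call required an RSA score under 0.001 and 4 or more sgRNAs up to the rank that gave that score; 0.31% of genes were called enriched and 0.418% depleted. BAHD1 was the only member called enriched, and no member was called depleted; since the choice of BAHD1 used this contrast, nothing is read from its call. With the highest sgRNA of every gene left out, BAHD1 stood at rank 5 but had 3 sgRNAs up to that rank, so the call was lost.

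Against the low-screen control, which shares the sorted library with the first comparison, 0.37% of genes were called enriched and 0.586% depleted. BAHD1 was called enriched at rank 33, and no other member was called in either direction; as the sorted library on which BAHD1 was selected is the same and the BAHD1 sums of the controls were nearly equal, nothing is read from this call either. sgRNA 3 could not be scored because it had no reads in the low-screen control; by the floor of 3 reads its sorted level was at least 8762-fold higher. Of the other 9 sgRNAs, 5 had a log2 ratio above 1 (13.2% of all gene-targeting sgRNAs) and 4 fell below -1 (71.5% of all). The highest was sgRNA 8 at 4.90, and the median was 1.97. sgRNA 7 changed direction between the controls, from 1.40 over the high-screen control to -1.51 over the low-screen control, with 15 reads in the former and 509 in the latter. The sgRNAs above 1 were 1, 2, 5, 8 and 10, which were also above 1 over the high-screen control, with the sorted library common to both ratios.

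**Figure D2:**
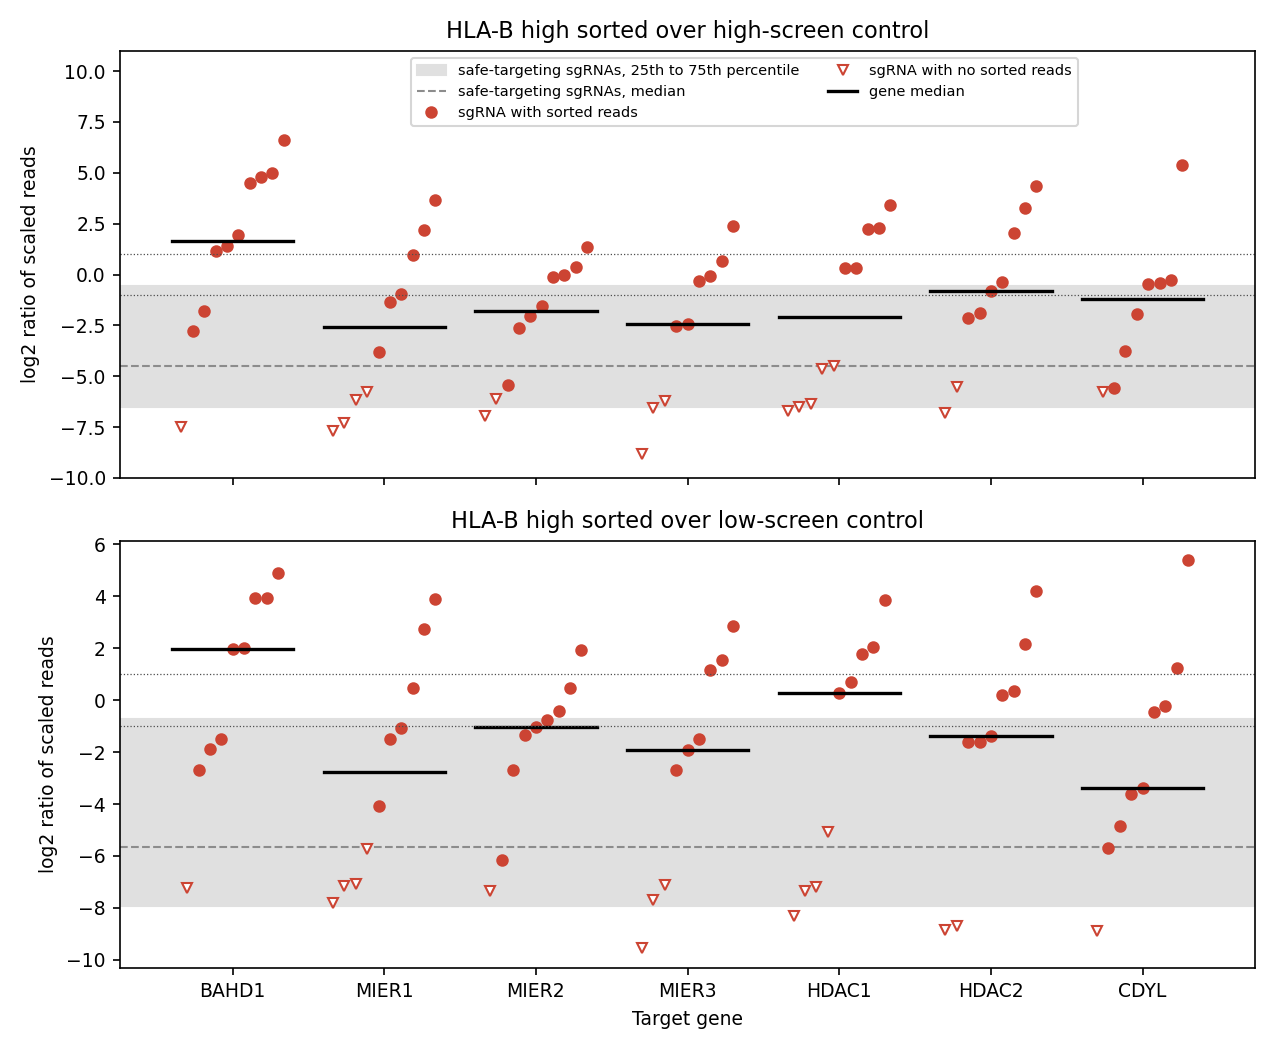
Log2 ratio of scaled reads for every scored member sgRNA, HLA-B high sorted over the high-screen control (top) and over the low-screen control (bottom), with gene medians as bars, dotted lines at 1 and -1, and the safe-targeting median and interquartile range in grey. Only the BAHD1 median lay above 1 in both panels, at 1.67 and 1.97, and every gene had sgRNAs on both sides of 0.

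The 3 MIER genes encode related scaffolds of HDAC1- and HDAC2-containing complexes. MIER1 (chr1:67390578-67454302) had a median log2 ratio of -2.58 over the high-screen control, with 2 of 10 sgRNAs above 1 and 6 below -1. Its sgRNA 2 had 1983 sorted, 104 high-control and 379 low-control reads, a log2 ratio of 3.64. Its sgRNA 1 had 1734, 253 and 745 reads in that order, a log2 ratio of 2.17. Below these, sgRNA 9 had 819, 278 and 1684 reads and a ratio of 0.95, whereas 4 of the 10 had no reads after the sort. The MIER1 sum was 140 CPM in the sorted library against 69.6 CPM, a 2.02-fold difference (1.91 to 2.14), and 1.27-fold without sgRNA 2.

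MIER2 (chr19:305573-344815) and MIER3 (chr5:56215429-56267502) had smaller sums in the sorted library than in the high-screen control. MIER2 summed to 28.5 CPM against 49.2 CPM, 0.58-fold (0.531 to 0.632), with a median log2 ratio of -1.80. Its only sgRNA above 1 was sgRNA 5, with 369, 96 and 279 reads (1.33), and 2 of its 10 sgRNAs had no sorted reads. MIER3 summed to 25.0 CPM against 52.6 CPM, 0.476-fold (0.435 to 0.52), with a median of -2.45. Its highest was sgRNA 8, with 229, 28 and 89 reads (2.40), and its lowest sgRNA 1, with 360 and 1119 reads in the controls and none after the sort, at least 182-fold lower than in the high-screen control. That sgRNA lay at percentile 0.224 of safe-targeting sgRNAs, while the 3 MIER medians all lay above the safe-targeting median. Against the non-targeting median of -2.20, MIER2 lay above and MIER3 and MIER1 below.

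HDAC1 and HDAC2 encode the class I deacetylases that MIER, NuRD, Sin3, CoREST and MiDAC complexes use as catalytic subunits. The sgRNAs of HDAC1 (chr1:32757684-32799236) divided into 5 with reads after the sort and 5 without. The 5 with reads all had positive log2 ratios over the high-screen control. They ran from 0.33 for sgRNA 8 (442 sorted, 232 high-control and 1037 low-control reads) to 3.40 for sgRNA 6 (2949, 183 and 581 reads). Between them lay sgRNA 10 (393, 206 and 704 reads) at 0.33, sgRNA 3 (1155, 161 and 968 reads) at 2.23 and sgRNA 1 (667, 89 and 459 reads) at 2.29. The 5 without sorted reads had between 17 and 83 reads in the high-screen control, fewer than any of the 5 with sorted reads, and were at least 8.61-fold to at least 42.0-fold lower after the sort.

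The median of HDAC1 fell between these groups of sgRNAs and differed between the controls. It was -2.08 over the high-screen control, at percentile 80.2 of genes, and 0.29 over the low-screen control, at percentile 98.1; sgRNA 5, with 17 high-control reads and none in the other libraries, was scored only in the former. The sum was 164 CPM after the sort against 49.9 and 48.0 CPM in the controls, 3.28-fold (3.08 to 3.50) and 3.41-fold (3.28 to 3.54). A single sgRNA, sgRNA 6, held 52.6% of the sorted reads, and without it the fold over the high-screen control was 1.86. HDAC1 ranked 975 by RSA and was not called.

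HDAC2 (chr6:114254192-114332472) had the highest median of the partners over the high-screen control, -0.82, at percentile 92.0 of genes. That place depended on the read minimum. With a minimum of 30 control reads HDAC2 stood at -1.35, below HDAC1 at 0.33 and CDYL at -1.22. Of 9 scored sgRNAs, 3 were above 1: sgRNA 3 (1371, 43 and 212 reads; 4.37), sgRNA 8 (291, 19 and 186 reads; 3.28) and sgRNA 1 (760, 123 and 1706 reads; 2.02). A further 4 were below -1, and 2 of all 10 had no reads after the sort. sgRNA 6 had 23, 1 and 5 reads and was too sparse to score. The sum was 81.5 CPM against 43.7 CPM, 1.87-fold (1.73 to 2.01), but 0.994-fold without sgRNA 3, so the excess rested on that sgRNA. Over the low-screen control the median was -1.38, and the rank by RSA was 953 in the first comparison and 3967 in the second.

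CDYL (chr6:4706393-4955785) had the largest share of its sorted reads on a single sgRNA among the members. sgRNA 1 had 5901 sorted, 93 high-control and 402 low-control reads, with log2 ratios of 5.37 and 5.39 over the controls. It held 95.4% of the sorted CDYL reads. The sum was 6.64-fold that of the high-screen control (6.11 to 7.23), and 0.357-fold once sgRNA 1 was left out. None of the other 7 scored sgRNAs was above 0, the next highest being sgRNA 3 (57, 46 and 69 reads) at -0.29. The gene median was -1.22, and the RSA rank of 904 rested on 1 sgRNA. CDYL sgRNAs were numbered up to 10, and sgRNA 5 was listed in no library.

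The fold of the summed reads and the median over sgRNAs thus ordered the members differently. By the sum over the high-screen control the order was BAHD1 (13.9), CDYL (6.64), HDAC1 (3.28), MIER1 (2.02), HDAC2 (1.87), MIER2 (0.58) and MIER3 (0.476). The counting intervals of MIER1 and HDAC2 overlapped, and those of the other neighbours did not. These intervals leave out the spread between sgRNAs, so they do not settle the order. Without the sgRNA with the most sorted reads, the folds were 8.22, 0.357, 1.86, 1.27, 0.994, 0.395 and 0.357 in the same order of genes. By the median over the high-screen control the order was BAHD1, HDAC2, CDYL, MIER2, HDAC1, MIER3 and MIER1, and all interquartile ranges of the 6 partners overlapped one another. Over the low-screen control the medians were ordered as BAHD1 (1.97), HDAC1 (0.29), MIER2 (-1.02), HDAC2 (-1.38), MIER3 (-1.92), MIER1 (-2.78) and CDYL (-3.37). All 6 partners thus changed place between the controls, and HDAC1 and CDYL moved furthest.

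The share of sgRNAs lost from the sorted library was counted over all members and over the whole library. Of the 69 member sgRNAs, 19 were absent from the sorted library, or 27.5% (exact 95% binomial interval 17.5 to 39.6%), whereas 50.8% of all gene-targeting sgRNAs were absent. Leaving out BAHD1, 18 of 59 were absent, or 30.5% (19.2 to 43.9%). The share ranged from 1 of 10 for BAHD1 and 1 of 9 for CDYL to 5 of 10 for HDAC1. Above a log2 ratio of 1 were 18 of 66 scored member sgRNAs (27.3%), and 11 of 56 (19.6%) without BAHD1, beside the 12.6% of all gene-targeting sgRNAs. Of the non-targeting sgRNAs 36.3% were absent, which lies within the interval of the partners, and 15.8% of those scored were above 1; of the safe-targeting sgRNAs 49.6% were absent and 11.7% above 1. The median over all genes was -4.54, and the partner medians ran from -2.58 for MIER1 to -0.82 for HDAC2. The intervals treat sgRNAs as separate, although sgRNAs of 1 gene share their target. BAHD1 was selected on this sort, and the partners were chosen with earlier results of these data known. The shares, with or without BAHD1, are therefore a description and not a test.

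The controls were also compared with each other, to show how far the same sgRNAs differed between libraries not labelled as sorted. In the high-screen control over the low-screen control, 0.821% of genes were called enriched and 0.733% depleted, and no member was called. The medians were 0.09 for BAHD1, 0.08 for MIER1, 0.04 for MIER2, 0.45 for MIER3, 0.16 for HDAC1, -0.85 for HDAC2 and 0.01 for CDYL. Of 67 scored member sgRNAs, 13 were above 1 (19.4%, against 22.6% of all gene-targeting sgRNAs) and 12 below -1 (17.9%, against 23.7%). HDAC2 was the lowest, with 4 of 9 sgRNAs below -1 and a median at percentile 7.91 of genes, and its sum was 43.7 CPM against 60.8 CPM, 0.719-fold (0.671 to 0.769). CDYL also had 4 of 9 sgRNAs below -1, and its sum was 0.712-fold (0.653 to 0.776). This comparison shares the high-screen control with the first one, so an sgRNA low in that control is raised in the first comparison and lowered here.

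**Figure D3:**
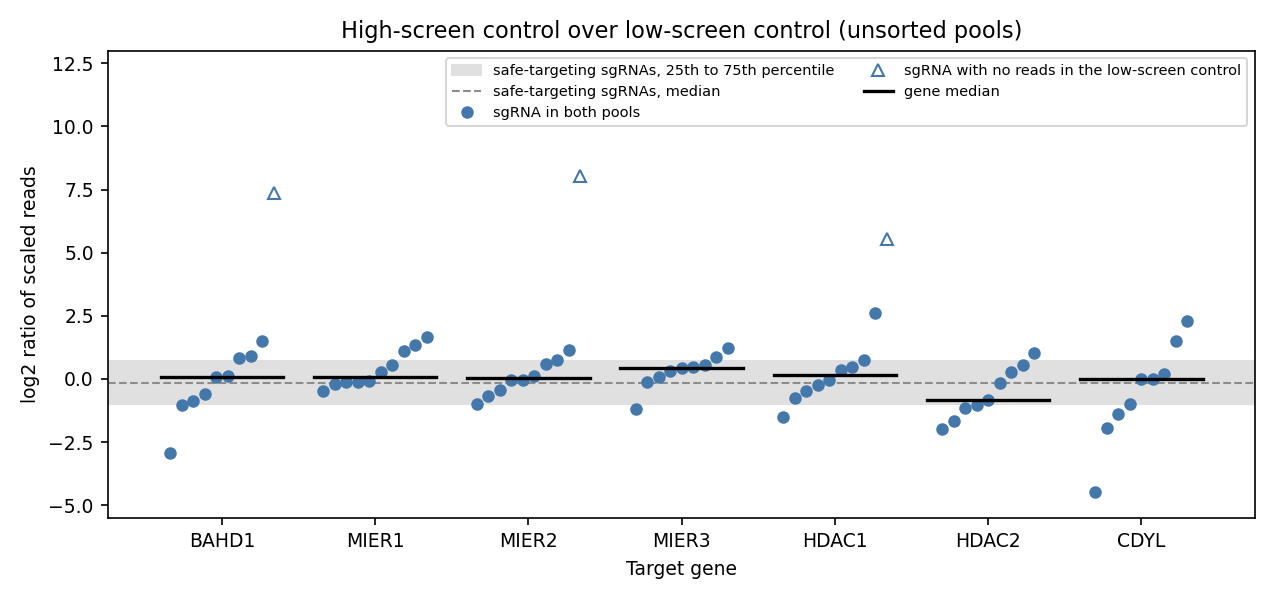
Log2 ratio of scaled reads for each scored member sgRNA in the high-screen control over the low-screen control, with gene medians as bars and the safe-targeting median and interquartile range in grey. Open triangles mark sgRNAs of BAHD1, MIER2 and HDAC1 with no reads in the low-screen control; the gene medians sat between -0.85 for HDAC2 and 0.45 for MIER3.

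Every one of the 69 member sgRNAs was present in the high-screen control, and 4 were absent from the low-screen control although it was the deepest library. These were BAHD1 sgRNA 3 (61 high-control reads, at least 88.7-fold higher than in the low-screen control), MIER2 sgRNA 9 (97 reads, at least 141-fold), HDAC1 sgRNA 5 (17 reads, at least 24.7-fold) and MIER3 sgRNA 9 (7 reads, at least 10.2-fold). Of them, only BAHD1 sgRNA 3 had reads in the sorted library.

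The wider gene families of the members were examined by their medians. Among 6 PRC2 core genes, EZH2, the main H3K27 methyltransferase, and EED, which binds the mark within PRC2, were called enriched over the high-screen control, with medians of 5.28 and 3.04. SUZ12 holds PRC2 together; all 6 of its scored sgRNAs were above 1 (median 2.55), yet it was not called. The remaining core genes were not called and lay at -4.64 (EZH1), -5.18 (RBBP7) and -6.31 (RBBP4), and the median over the 6 was -1.04. Over the low-screen control EZH2 (4.56) and EED (0.91) were called enriched. SUZ12 (0.73) was not called there, although it ranked 12 by RSA and EED 110. EED and SUZ12 each had 5 of 10 sgRNAs above 1 and 3 below -1. EED (-1.75) and SUZ12 (-1.80) were called depleted in the high-screen control over the low-screen control, where BAHD1 stood at 0.09.

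Other proteins that read H3K27me3 were listed beside BAHD1. Of 10 reader genes with sgRNAs, EED and BAHD1 were called enriched, none was called depleted, and the median over the 8 that are not members was -4.57. The lowest was TNRC18, a BAH-domain protein also known to bind H3K9me3, at -5.84. Among 9 BAH-domain genes other than BAHD1 none was called, beside 0.31% of all genes called enriched and 0.418% depleted. MTA3, a NuRD subunit, was highest at -0.25 and ASH1L, a histone methyltransferase, lowest at -6.28.

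Of 12 ELM2-SANT scaffold genes, none was called over the high-screen control, where 0.31% of all genes were called enriched and 0.418% depleted. Their median was -2.82, and that of the 9 other than the MIER genes was -4.12. MTA3 was again the highest, and TRERF1, a MiDAC subunit, the lowest at -6.23. The 18 histone deacetylase and sirtuin genes had a median of -3.04 and none was called. HDAC8, a class I deacetylase that works outside these complexes, was highest at 0.14, and HDAC5, a class IIa enzyme, lowest at -7.26. In the CDY family CDYL was highest at -1.22, beside CDY2A at -1.43 on 1 sgRNA, and its paralogue CDYL2 stood at -5.83. CDY1B and CDY2B, with 1 sgRNA each, had no sorted reads. Over the low-screen control CDY2A (-2.36) lay above CDYL (-3.37). Of 10 other reported BAHD1 partners, none was called. MBD1, which binds methylated DNA, had the highest median at -0.50, and TRIM28, a corepressor of zinc-finger proteins, the lowest at -5.79. By RSA, MBD1 ranked 24 over the high-screen control, with 3 of 8 scored sgRNAs above 1 and 4 below -1. Its rank over the low-screen control was 5040. Over all lists, 94 genes other than the members had sgRNAs. Of these, EZH2 and EED were called enriched over each control, beside 0.31% (high-screen) and 0.37% (low-screen) of all genes, and none was called depleted. In the high-screen control over the low-screen control, EED and SUZ12 were called depleted, beside 0.733% of all genes, and none was called enriched.

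**Figure D4:**
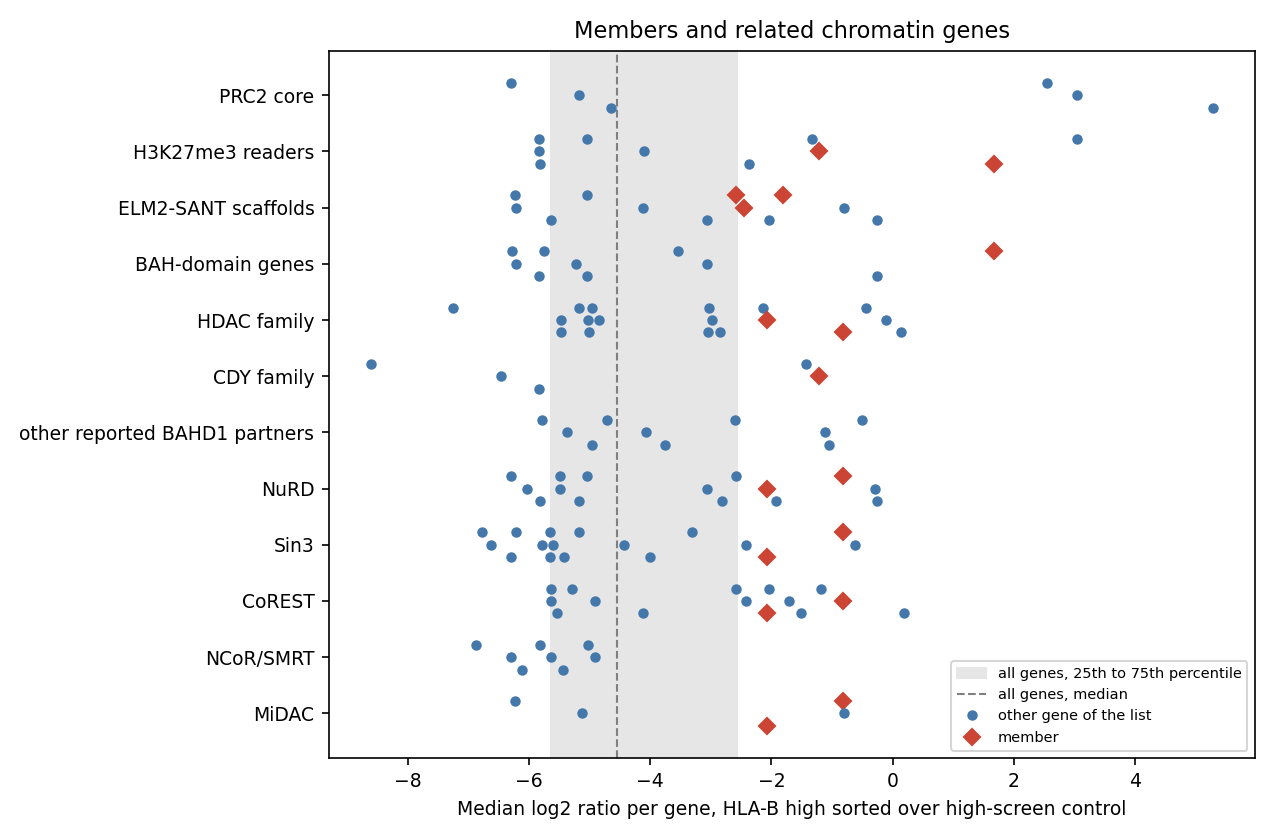
Median log2 ratio per gene, HLA-B high sorted over high-screen control, for the members (diamonds) and the other genes (circles) of each list, with the median and interquartile range over all genes in grey. Genes in several lists are drawn in each; beyond 1 lay the PRC2 genes EZH2, EED and SUZ12 and the member BAHD1.

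The 5 genes with the pattern nearest to BAHD1 were found by the distance over 2 values, the medians of sorted over high-screen control and of high- over low-screen control, among 16897 genes with at least 8 scored sgRNAs. They were PTPN23 (1.78 and 0.19), B4GALNT2 (1.53 and -0.10), MBLAC1 (1.37 and 0.04), THTPA (1.48 and -0.17) and CYTL1 (2.04 and -0.05). Their summed sorted levels, from 33.6 CPM for PTPN23 to 248 CPM for CYTL1, were below the 596 CPM of BAHD1. In the high-screen control their sums ran from 12.3 CPM for PTPN23 to 58.1 CPM for MBLAC1, against 42.7 CPM for BAHD1. As BAHD1 was selected for its enrichment in this sort, the difference in sorted levels is a description.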

How the data were processed

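The authors deposited 1 table per library of raw counts, the number of reads matched to each sgRNA by name. Tools named by the submitters' processing notes are Bowtie2, cutadapt and bcl2fastq; their versions and settings are not given in the sources used here. Reads matched to no sgRNA (21.9% after the sort, 20.6% in the high-screen and 12.1% in the low-screen control) were left out. An sgRNA not listed was taken as 0 reads. The low-screen control is titled for HLA-ABC, whereas its deposited table is named for HLA-B. Groups were taken from the sample titles.

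For each pair of libraries, counts were scaled to the mean of both totals of matched reads, a pseudocount of 1 was added, and log2 ratios were taken where the control had 10 or more reads (either pool for the comparison of controls). Genes were summarised by the median and ranked by RSA over all genes. The RSA code was checked on simulated counts in which some genes had known changes. That simulation did not include the loss of sgRNAs seen in the sorted library, so it does not bear on the calls there. RSA served as a rank and a call rule, and no p-values are given with 1 library per group. Intervals on folds of summed reads are exact binomial at 95% and treat reads as independent. The floor of 3 reads was 0.0875 CPM after the sort, 0.133 CPM in the high-screen and 0.0305 CPM in the low-screen control.

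Gene positions came from GENCODE annotation lifted to GRCh37, and guide targets were matched to that genome. All members and their sgRNAs are described; from the lists of related genes, those called, or otherwise the highest and lowest median, are named, plus the 5 genes nearest to BAHD1. The members and lists were chosen with earlier results of these data known. Alternatives were other pseudocounts, minimums, scaling, thresholds, gene summaries and call rules, and leaving out the most extreme sgRNA. Python 3.11.15, numpy 2.4.6, pandas 2.3.3, scipy 1.17.1 and matplotlib 3.10.9 were used.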

Additional observations from a re-analysis of the deposited data

How the results depend on the processing

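Of 126 recomputed counts, 115 stayed within 1.5 times their value; the mean and the summed CPM changed gene values only, and the log2 ratio of 2 and the other call rule each bore on part of the counts. Leaving out the most extreme sgRNA of every gene gave 0 members called enriched over the high-screen control in place of 1 (BAHD1), although the enriched genes over the library rose from 63 to 110. That setting also gave 11 member sgRNAs above a log2 ratio of 1 in place of 18 over either control and, between the controls, 6 in place of 13, 7 below -1 in place of 12, and 1 for BAHD1 in place of 2; fewer sgRNAs enter it by construction. With a log2 ratio of 2 in place of 1, BAHD1 had 4 sgRNAs beyond it over the high-screen control in place of 7, and between the controls the members had 5 above and 2 below, with 1 for BAHD1. The BAHD1 gene value over the high-screen control, on which BAHD1 was selected, was positive under all 8 alternatives in which it was recomputed. Its values ran from 1.33 for the mean to 3.80 for the sum, and over the low-screen control from 0.23 to 3.82. Those of CDYL (-1.95 to 2.73), HDAC1 (-4.49 to 1.71), HDAC2 (-1.35 to 0.90) and MIER1 (-3.82 to 1.01) took either sign over the high-screen control. No paired analysis was possible because each group was 1 library. Folds of sgRNAs with no sorted reads are bounds set by the floor of 3 reads, and their log2 ratios depend on the pseudocount.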

Other observations

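The larger complexes that use HDAC1 and HDAC2 were described beside the members. Over the high-screen control no gene of NuRD (15 genes), Sin3 (17), CoREST (15), NCoR/SMRT (8) or MiDAC (5) was called in either direction. Of all genes, 0.31% were called enriched and 0.418% depleted, so an absence of calls among so few genes says little about them. Without HDAC1 and HDAC2, the median over genes was -5.05 for NuRD, -5.61 for Sin3, -2.58 for CoREST and -5.13 for MiDAC, beside -4.54 over all genes. CoREST was the highest of these, led by GFI1B, a transcription factor of erythroid cells, at 0.18, with ZMYM3 lowest at -5.64. NCoR/SMRT, which uses HDAC3, had a median of -5.73, running from GPS2 at -4.91 to TBL1Y at -6.88. In NuRD the lowest was RBBP4, a histone chaperone shared with PRC2, at -6.31, whose 7 sgRNAs all had no sorted reads. In Sin3 the highest was ARID4A at -0.61 and the lowest SAP18 at -6.77. In MiDAC the highest was MIDEAS, listed under its older name ELMSAN1, at -0.80.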
